A study of Homo sapiens with 6 samples.

Results

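Proteasome genes were compared between highly motile and unsorted MDA-MB-231 cells, an established human line from a triple-negative breast cancer. The members were the genes whose symbol starts with PSM followed by a letter from A to G and a number, and 42 of the 16258 genes in the table met that rule. The migratory group held 3 samples of MDA-MB-231 cells isolated for high motility after seeding in microfluidic devices, and the unsorted group, labelled ctl, held 3 samples of the same line without that selection. All samples came from cells kept in DMEM with heat inactivated FBS, penicillin and streptomycin and carried no genotype change or drug, and each was 1000 cells. Whether the triplicates came from separate cultures is not labelled, and the p-values therefore refer to the spread among these libraries, part of which may be technical. Whether the unsorted cells had also been in the devices is not labelled either, so an effect of the device and of the selection cannot be told apart. Each sample is a bulk RNA measurement, in which fewer cells of a kind and less RNA per cell cannot be told apart.

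The proteasome is the protease that degrades proteins tagged with ubiquitin. Its barrel-shaped core is built from outer rings of alpha subunits (PSMA genes), which gate the entrance, and inner rings of beta subunits (PSMB genes), which include the catalytic ones. A regulatory particle of ATPases (PSMC genes) and non-ATPase subunits (PSMD genes) binds ubiquitin chains, removes them and unfolds the substrate. Interferon-gamma induces replacement catalytic subunits, which form the immunoproteasome, and the activator PA28, and both shape the peptides shown on MHC class I.

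Values are normalised read counts, which are reads divided by 1 size factor per library, with no scaling for gene length. The reads behind the table came to between 27032454 and 34511537 in the migratory libraries and between 32789072 and 74227978 in the unsorted ones, and the deepest was unsorted replicate 2. Every member was read in every library, with at least 457 reads. All 42 passed the filter on low values, a mean of at least 10. The members took 1.66%, 1.48% and 1.504% of reads in migratory replicates 1, 2 and 3, against 1.40%, 1.29% and 1.38% in unsorted replicates 1, 2 and 3, and these shares did not overlap between groups. PSMA8, PSMB3, PSMB8, PSMB9, PSMB11 and PSMC4 were not analysed here, so PSMB10 alone stands for the immunoproteasome. The line's markers VIM, CD44, EGFR and AXL were each at 2201 normalised read counts or more in every library. Of the genes listed as low in the line, CDH1 lay between 0 and 28.3 across the 6 libraries, and ERBB2 between 588 and 1742. ESR1 and PGR, also listed as low, were not analysed here.

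No proteasome gene passed an adjusted p of 0.05 over all tested genes (limma with Benjamini-Hochberg adjustment, two-sided), where 0.234% of 15786 genes were called. The lowest limma adjusted p among the members was 0.12, for PSMD13. At an unadjusted p under 0.05 there were 11 members with higher values in migratory cells and 0 with lower, against 7.7% and 10.0% of all tested genes. DESeq2 on the recovered whole reads called PSMD13 (adjusted p of 0.025) and PSMC1 (adjusted p of 0.048) as higher, where it called 5.91% of all genes, and edgeR called 0 members, where it called 0.133%. The members' log2 fold changes, migratory minus unsorted, lay between -0.60 and 0.70. They were positive for 34 of 42 members with a median of 0.17, beside 48.1% of all tested genes and a median of -0.03. Of the 6059 tested genes whose mean reached 1000, 59.0% were positive with a median of 0.09. All 3 migratory values lay above all 3 unsorted values for 16 members, where this held for 11.3% of all tested genes and 17.4% of those with a mean of at least 1000. No member had all migratory values below all unsorted ones, where this held for 12.5% of tested genes and 561 of the 6059 with a mean of at least 1000. Without unsorted replicate 2 it held for 5 members (20.4% of tested genes), and without migratory replicate 1 for 3 (17.8%). With any other library left out it held for 0 or 1. Without unsorted replicate 2 there were 27 members with positive values, and without migratory replicate 1 there were 28 and the median was 0.07.

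**Figure D1:**
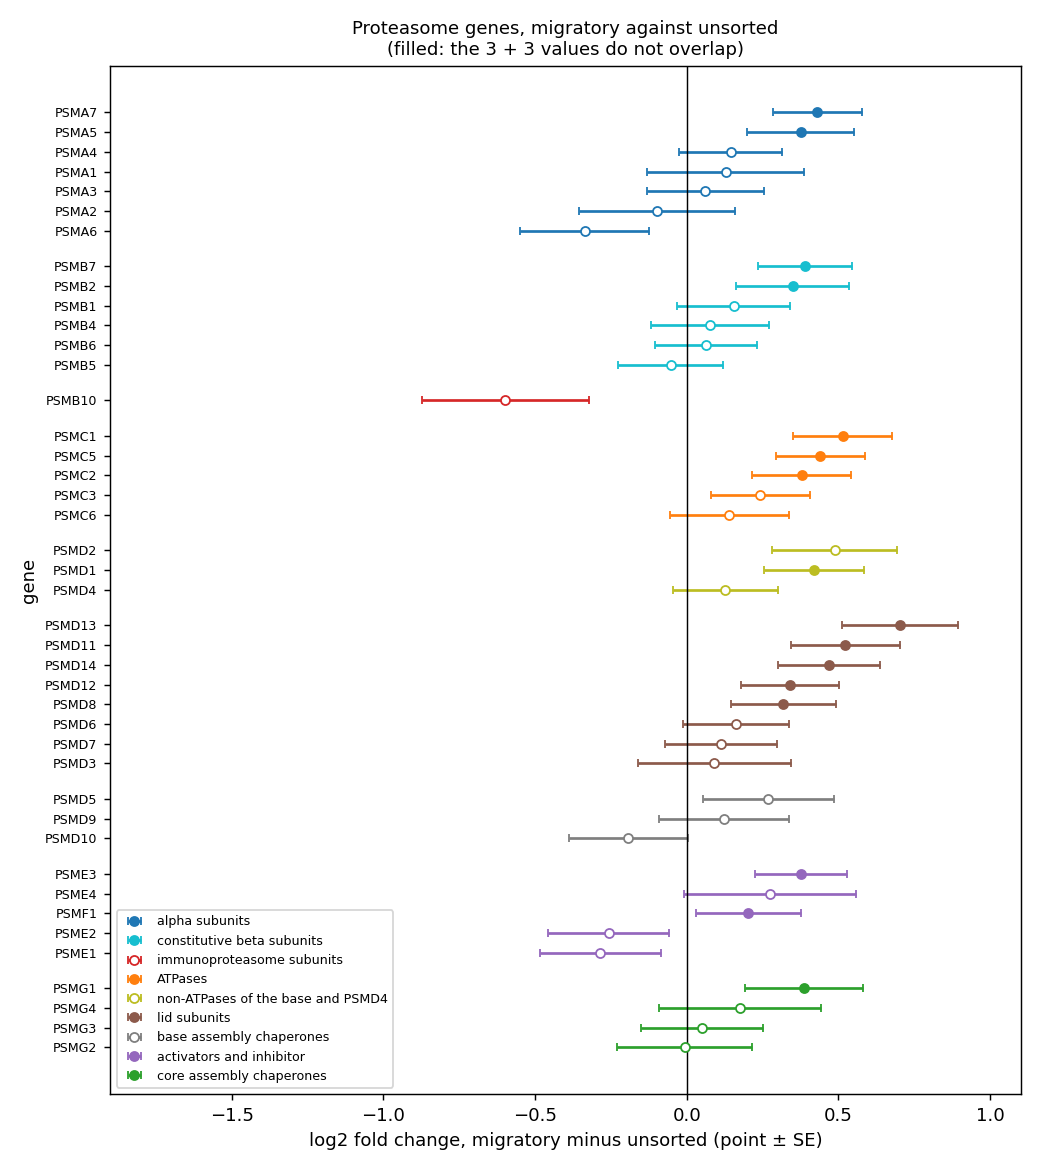
Log2 fold change (migratory minus unsorted, point ± SE from limma) of the 42 proteasome genes, grouped by role. Filled points mark the 16 genes whose migratory and unsorted values do not overlap. All regulatory particle subunits lie right of 0, and PSMB10 lies farthest to the left.

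The alpha subunits form the outer rings of the core. PSMA7 had 51022, 40629 and 42079 normalised read counts in the migratory libraries, against 34679, 30102 and 34121 in the unsorted libraries. Every migratory value was above every unsorted value, with a log2 fold change of 0.43 (SE 0.15) and a limma adjusted p of 0.19. PSMA5 had 18980, 14470 and 14768 in migratory cells and 13691, 10653 and 12729 in unsorted cells. These groups did not overlap either, and the log2 fold change was 0.38 (SE 0.18, limma adjusted p of 0.30). The other alpha subunits overlapped between groups. PSMA1, PSMA3 and PSMA4 had log2 fold changes of 0.13, 0.06 and 0.14, and PSMA2 and PSMA6 of -0.10 and -0.34. Leaving out single libraries turned the sign for PSMA1 (-0.09 to 0.31), PSMA3 (-0.09 to 0.20) and PSMA2 (-0.34 to 0.11).

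The constitutive beta subunits include the 3 catalytic ones. PSMB5, which carries the chymotrypsin-like site, had 23471, 18715 and 19337 normalised read counts in migratory cells and 22975, 17551 and 23535 in unsorted cells. PSMB6, the caspase-like subunit, had 30436, 24295 and 25060 in migratory cells and 27313, 21195 and 28106 in unsorted cells. For both the groups overlapped widely, and the sign of the log2 fold change, -0.05 for PSMB5 and 0.06 for PSMB6, turned when single libraries were left out. PSMB7, the trypsin-like subunit, had 31982, 27454 and 27670 in migratory cells, against 23833, 18981 and 23840 in unsorted cells. Its groups did not overlap, with a log2 fold change of 0.39 (SE 0.16) and a limma adjusted p of 0.24. Of the non-catalytic beta subunits, PSMB2 had 27168, 19315 and 20796 in migratory cells and 19222, 14604 and 18828 in unsorted cells, which did not overlap (log2 fold change 0.35, SE 0.18, limma adjusted p of 0.35). PSMB1 had 38059, 27954 and 28744 in migratory cells and 32709, 22825 and 29682 in unsorted cells, which overlapped. Leaving out unsorted replicate 2 lowered its log2 fold change of 0.15 to 0.0052, and leaving out migratory replicate 1 lowered it to 0.013. PSMB4 had a log2 fold change of 0.08, which lay between -0.06 and 0.17 with single libraries left out.

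PSMB10 encodes the immunoproteasome subunit that takes the place of the PSMB7 product. It had the lowest fold change of all members, with 564, 728 and 661 normalised read counts in migratory cells and 1233, 701 and 1089 in unsorted cells. Unsorted replicate 2 lay among the migratory values and the other unsorted libraries above them. The means were 651 ± 82.9 in migratory and 1008 ± 275 in unsorted cells (SD, n = 3 each), with a log2 fold change of -0.60 (SE 0.28) and a limma adjusted p of 0.29. Leaving out single libraries moved the log2 fold change between -0.84, without unsorted replicate 2, and -0.43, without unsorted replicate 1. Relative to its constitutive counterpart in the same library, PSMB10 stood at 1.76%, 2.65% and 2.39% of the PSMB7 value in migratory replicates 1, 2 and 3. In the unsorted replicates it stood at 5.17%, 3.70% and 4.57%. This ratio depends on no scaling between libraries, and its groups did not overlap. It differed by -0.99 on the log2 scale, a fold of 0.504, with means of -5.48 ± 0.31 in migratory and -4.49 ± 0.25 in unsorted cells (SD, n = 3 each). The exact permutation test gave a two-sided p of 0.1, the smallest that 3 samples against 3 allow, so the design cannot reach 0.05. Ratios of PSMB8 to PSMB5 and of PSMB9 to PSMB6 were not analysed here, which left this as the 1 ratio tested. Of the exon sequence of PSMB10 (GRCh38, chromosome 16, 67934502 to 67937087), 34.8% overlaps another annotated gene on the same strand, and the counting of reads in shared exons is not stated. Across all members, 11 had over 10% of their exon bases overlapped by another gene and 21 had none.

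**Figure D2:**
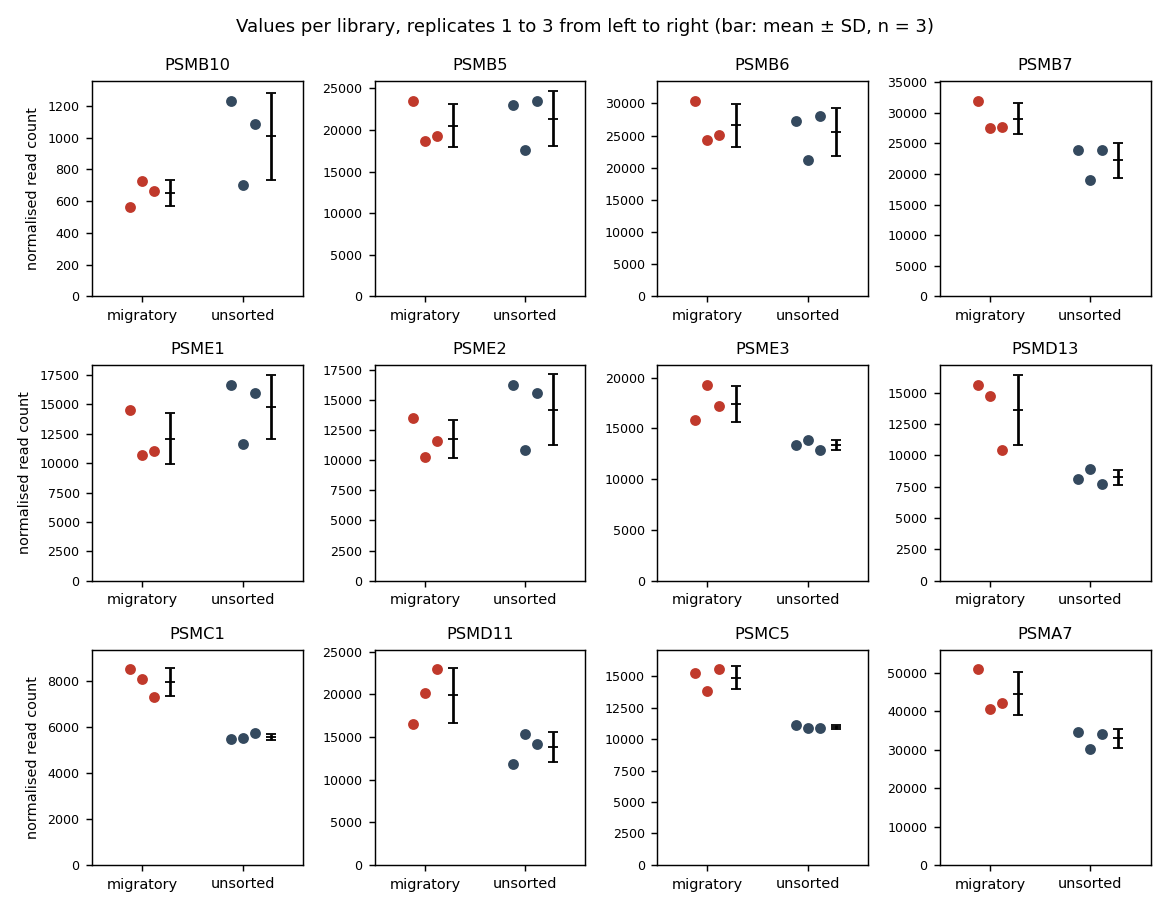
Normalised read count of 12 proteasome genes in each library (points, replicates 1 to 3 from left to right in each group), with mean ± SD (n = 3 per group) beside them and every axis starting at 0. PSMB10, PSME1 and PSME2 have overlapping groups and lower migratory means, and PSMB7, PSME3, PSMD13, PSMC1, PSMD11, PSMC5 and PSMA7 have migratory values that are all above the unsorted ones.

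Of the activator and inhibitor genes 3 had positive and 2 negative log2 fold changes, and none passed in limma, edgeR or DESeq2. PSME1 and PSME2 encode the alpha and beta subunits of PA28, which opens the core without ubiquitin and is induced by interferon-gamma. PSME1 had 14566, 10652 and 11065 normalised read counts in migratory cells and 16665, 11639 and 16011 in unsorted cells. PSME2 had 13470, 10280 and 11564 in migratory cells and 16261, 10809 and 15556 in unsorted cells. As for PSMB10, unsorted replicate 2 lay among the migratory values of both genes. The log2 fold changes were -0.29 (SE 0.20) for PSME1 and -0.26 (SE 0.20) for PSME2, with limma adjusted p of 0.48 and 0.53. PSME3, the gamma subunit, which forms a separate nuclear activator, had 15784, 19280 and 17177 in migratory cells and 13394, 13865 and 12876 in unsorted cells. These groups did not overlap, with a log2 fold change of 0.38 (SE 0.15) and a limma adjusted p of 0.24. PSME4, the activator PA200, had 1358, 789 and 726 in migratory cells and 828, 720 and 736 in unsorted cells. Migratory replicate 1 stood apart there, and the log2 fold change of 0.27 was -0.0060 without it. PSMF1, a proteasome inhibitor when tested on purified proteasomes, had a log2 fold change of 0.20, and its lowest migratory value, 4474, lay barely above its highest unsorted value, 4473.

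Promoter sequences are shown for the interferon-inducible members PSMB10, PSME1 and PSME2, whose log2 fold changes were negative, and for PSMD13, which had the highest. Each window runs from 250 bases before to 50 bases after a RefSeq start site (GRCh38.p14) and is written 5′ to 3′ on the gene's strand. Capitals mark matches, on either strand, to the interferon-stimulated response element core (GAAA repeated after any pair of bases) in PSMB10, PSME1 (right of the start site) and PSME2, and to the antioxidant response element core TGANNNNGC in PSME1 (left of the start site), PSME2 (both sides) and PSMD13. The marked matches do not overlap each other. The windows were PSMB10 at chr16:67936801-67937100 (minus strand), PSME1 at chr14:24135944-24136243 (plus), PSME2 at chr14:24146561-24146860 (minus) and PSMD13 at chr11:236726-237025 (plus).
PSMB10: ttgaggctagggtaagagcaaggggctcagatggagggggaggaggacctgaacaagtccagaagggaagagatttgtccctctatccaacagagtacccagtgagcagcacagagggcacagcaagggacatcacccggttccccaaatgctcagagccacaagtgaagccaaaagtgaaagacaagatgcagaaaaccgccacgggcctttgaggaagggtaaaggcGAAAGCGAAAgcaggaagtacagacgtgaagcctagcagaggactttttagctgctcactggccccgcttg
PSME1: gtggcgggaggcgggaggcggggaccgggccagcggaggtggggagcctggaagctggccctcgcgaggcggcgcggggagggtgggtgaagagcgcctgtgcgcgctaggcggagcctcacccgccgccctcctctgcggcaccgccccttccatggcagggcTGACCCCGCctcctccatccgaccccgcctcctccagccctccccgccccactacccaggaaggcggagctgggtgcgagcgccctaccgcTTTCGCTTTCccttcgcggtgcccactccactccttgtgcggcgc
PSME2: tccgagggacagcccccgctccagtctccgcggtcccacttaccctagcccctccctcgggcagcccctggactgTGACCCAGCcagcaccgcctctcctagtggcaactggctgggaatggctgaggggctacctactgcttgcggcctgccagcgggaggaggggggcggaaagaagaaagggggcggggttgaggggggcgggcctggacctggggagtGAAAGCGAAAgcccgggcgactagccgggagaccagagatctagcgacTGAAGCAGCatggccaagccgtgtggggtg
PSMD13: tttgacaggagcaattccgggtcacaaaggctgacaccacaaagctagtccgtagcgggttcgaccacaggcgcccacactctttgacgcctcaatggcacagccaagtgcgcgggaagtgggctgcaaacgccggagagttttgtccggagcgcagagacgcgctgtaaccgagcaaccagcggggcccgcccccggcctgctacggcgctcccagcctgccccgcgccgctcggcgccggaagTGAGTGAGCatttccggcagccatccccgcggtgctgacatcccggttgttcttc

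The interferon core match began 21 bases before the start site in PSMB10, 28 bases before it in PSME2 and 5 bases after it in PSME1. It was found in 6 of the 36 members with a RefSeq window, in 6 of 44 windows (13.6%), where 3.57% of 35116 windows held it. The other members with a match were PSMA4, PSMB4 and PSMG4, with log2 fold changes of 0.14, 0.08 and 0.18. The gamma-activated site core TTCNNNGAA was in 5 of 44 member windows (11.4%) and in 7.66% of all windows, and in none of the 4 printed here. The antioxidant core was in 25 of 44 member windows (56.8%) and 41.8% of all windows. The CCAAT box, searched as CCAAT, was in 17 of 44 member windows (38.6%) and 34.6% of all windows. A match describes letters only. PSMA7, PSMB1, PSMB6, PSMB7, PSMD4 and PSMG3 had no RefSeq window here, so their promoters were not searched.

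The ATPases of the regulatory particle unfold substrates and thread them into the core. All 5 measured had positive log2 fold changes, with a median of 0.38. PSMC1 (chromosome 14, 90256495 to 90275429) had 8500, 8052 and 7301 normalised read counts in migratory cells, against 5474, 5499 and 5705 in unsorted cells. Both groups were tight and far apart, with a log2 fold change of 0.51 (SE 0.16) and a limma adjusted p of 0.16. Of its exon sequence 75.8% overlaps NRDE2 on the other strand, and the libraries do not mark strand. Its processed pseudogene PSMC1P1 had its own row, at 713, 550 and 588 in migratory cells and 404, 425 and 441 in unsorted cells, and reads shared between the copies are uncertain. PSMC5 had 15275, 13852 and 15563 in migratory cells and 11120, 10876 and 10905 in unsorted cells, with a log2 fold change of 0.44 (SE 0.15, limma adjusted p of 0.18). PSMC2 also had no overlap between groups (0.38), and PSMC3 (0.24) and PSMC6 (0.14) overlapped.

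The non-ATPase subunits PSMD1 and PSMD2 are scaffolds of the base, and PSMD4 is a ubiquitin receptor. PSMD2 had 52373, 74365 and 82698 normalised read counts in migratory cells and 40299, 61097 and 47439 in unsorted cells, which overlapped, with a log2 fold change of 0.49. PSMD1 did not overlap (0.42), and PSMD4 overlapped (0.13). The lid cuts ubiquitin chains from the substrate through PSMD14, its metalloprotease, and holds structural subunits such as PSMD11, PSMD12 and PSMD13. All 8 lid subunits among the members had positive log2 fold changes, with a median of 0.33. Of these 5 did not overlap between groups, beside 11.3% of tested genes. PSMD13 (chromosome 11, 236546 to 252984) had 15644, 14748 and 10438 in migratory cells, against 8132, 8904 and 7732 in unsorted cells. Migratory replicate 3 was the lowest of its group and still above every unsorted library. The log2 fold change was 0.70 (SE 0.19), with a limma adjusted p of 0.12. Over the alternative settings the adjusted p lay between 0.025 (DESeq2) and 0.37 (limma with a library left out). PSMD11 had 16472, 20201 and 22962 in migratory cells and 11865, 15325 and 14175 in unsorted cells, with a log2 fold change of 0.52 (SE 0.18, limma adjusted p of 0.19). PSMD14 had 21470, 17185 and 16973 in migratory cells and 15182, 12302 and 12634 in unsorted cells, with a log2 fold change of 0.47. PSMD12 and PSMD8 did not overlap either (0.34 and 0.32), while PSMD3, PSMD6 and PSMD7 overlapped, with log2 fold changes of 0.09, 0.16 and 0.11. PSMD3, PSMD7 and PSMC6 had negative values in some fits with a library left out, down to -0.11, -0.01 and -0.04.

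Core and regulatory particle differed in how their genes lay across libraries. Over the 13 constitutive core genes, the median deviation from the unsorted mean was 0.35, -0.01 and -0.02 on the log2 scale in migratory replicates 1, 2 and 3, and 0.14, -0.26 and 0.08 in unsorted replicates 1, 2 and 3. These overlapped between groups. Migratory replicate 1 was the highest library of its group for 13 of 13 core genes, and unsorted replicate 2 the lowest of its group for 13 of 13. The core median of 0.13, with 10 of 13 positive, was -0.04 with 6 positive without migratory replicate 1, and -0.02 with 6 positive without unsorted replicate 2. Over the 16 regulatory particle subunits among the members the medians were 0.35, 0.27 and 0.35 in the migratory libraries and -0.02, -0.01 and 0.02 in the unsorted libraries. These did not overlap, and 9 of the 16 genes had no overlap of their own, where migratory values were all higher for 11.3% of tested genes and 17.4% of those with a mean of at least 1000. Single particle genes spread more than these medians. Migratory replicate 1 was the highest of its group for 9 of the 16 and the lowest for 6. Unsorted replicate 2 was the highest of its group for 7 and the lowest for 7, with deviations from -0.36 (PSMC6) to 0.39 (PSMD3). With 1 library left out, 14 to 16 of the 16 stayed positive and the median lay between 0.35 and 0.41. The particle subunits ADRM1 and SHFM1 are not PSM genes and were not counted here. They overlapped between groups, with log2 fold changes of 0.05 and 0.21, which reached -0.11 and -0.03 with a library left out. The difference between the particle's median and the core's within a library was -0.0047, 0.28 and 0.36 in migratory cells and -0.16, 0.24 and -0.06 in unsorted cells. These values overlapped, so the gap between core and particle was not distinct between the groups.

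**Figure D3:**
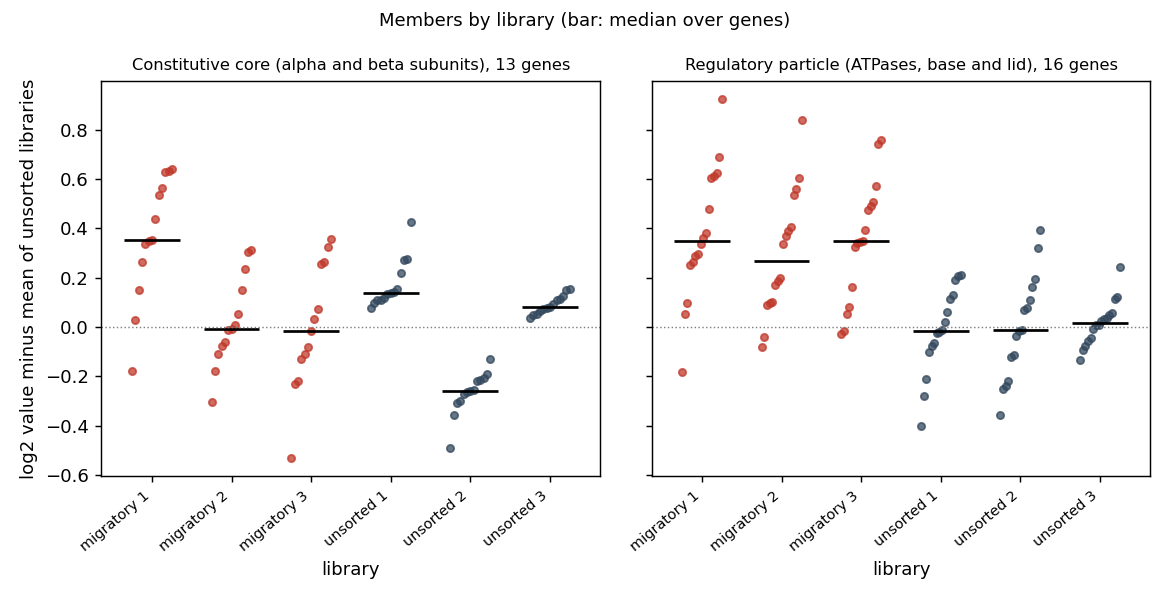
Log2 normalised read count of each gene minus its mean over the unsorted libraries, by library, for 13 constitutive core genes (left) and 16 regulatory particle genes (right), with bars for the median over genes. The core medians overlap between groups, and the particle medians lie between 0.27 and 0.35 in migratory and between -0.02 and 0.02 in unsorted libraries.

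Transcript length moved with these classes. The longest annotated transcript had a median of 1939 bases over the core genes and 2996 over the regulatory particle genes. Across the 42 members, which share libraries and amplification, Spearman's rho between that length and the log2 fold change was 0.34, beside 0.11 over 13686 tested genes with a length. In all these genes the deviation of unsorted replicate 2 from its group mean had a rho of 0.31 with length, and the deviations of unsorted replicates 1 and 3 had a rho of -0.16 and -0.22. Those of migratory replicates 1, 2 and 3 had a rho of -0.19, 0.18 and 0.05. Over the members alone, the rho was -0.10, 0.04 and -0.06 for migratory replicates 1, 2 and 3. It was -0.05, 0.25 and -0.37 for unsorted replicates 1, 2 and 3. The part of length in the class difference was not tested.

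Dedicated chaperones assemble the proteasome and are not in the finished particle. PSMG1, a partner of PSMG2 in starting the alpha ring, had 4750, 4303 and 3514 normalised read counts in migratory cells, against 3463, 2897 and 3199 in unsorted cells. Its groups did not overlap, with a log2 fold change of 0.39 (SE 0.19) and a limma adjusted p of 0.33. PSMG2 had a log2 fold change of -0.01 and PSMG3 of 0.05, and the sign of both turned with single libraries left out. PSMG4 had 1694, 1042 and 1076 in migratory cells and 1240, 888 and 1197 in unsorted cells, which overlapped, with a log2 fold change of 0.18 that was -0.05 without migratory replicate 1. PSMD5, PSMD9 and PSMD10 escort the ATPase base. They overlapped between groups, with log2 fold changes of 0.27, 0.12 and -0.19.

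Levels between genes were compared per kilobase of union exon, as the mean normalised read count of a group. PSMA7 had the highest level, at 25472 per kilobase in migratory and 18838 in unsorted cells, and PSME4 the lowest, at 93.5 and 74.3. Among the catalytic pair that could be compared, PSMB7 was at 16248 in migratory and 12433 in unsorted cells, and PSMB10 at 351 and 544. PSMB7 was thus 46.2 times PSMB10 per kilobase in migratory and 22.9 times in unsorted cells. The alpha subunits, which enter the core in equal numbers, ranged from 279 (PSMA6) to 25472 (PSMA7) per kilobase in migratory cells and from 354 to 18838 in unsorted cells. The lid subunits ranged from 1272 (PSMD3) to 5196 (PSMD8) in migratory cells and from 1200 to 4132 in unsorted cells. PSMA1, PSMA2 and PSMA6 were the lowest alpha subunits. Exon overlap with other annotated genes took 24.7%, 34.6% and 14.1% of their sequence, and PSMA2 and PSMA6 have named pseudogenes. The union exons of PSMA1, PSMA2 and PSMA6 came to 3301, 5336 and 6506 bases, beside 1750 for PSMA7. Undivided by length, the migratory means were 1816 for PSMA6 and 44577 for PSMA7. The part of exon overlap, pseudogenes and annotated length in these levels was not tested. The order of genes was nearly shared between groups, with a Spearman's rho of 0.97 over the 42 members. With the longest transcript as the length PSMA7 stayed first and PSMB10 stayed 37th of 42. Of the 41 pairs of neighbours in that order, 32 lay closer together than the larger of their SDs in migratory cells, and 32 in unsorted cells.

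**Figure D4:**
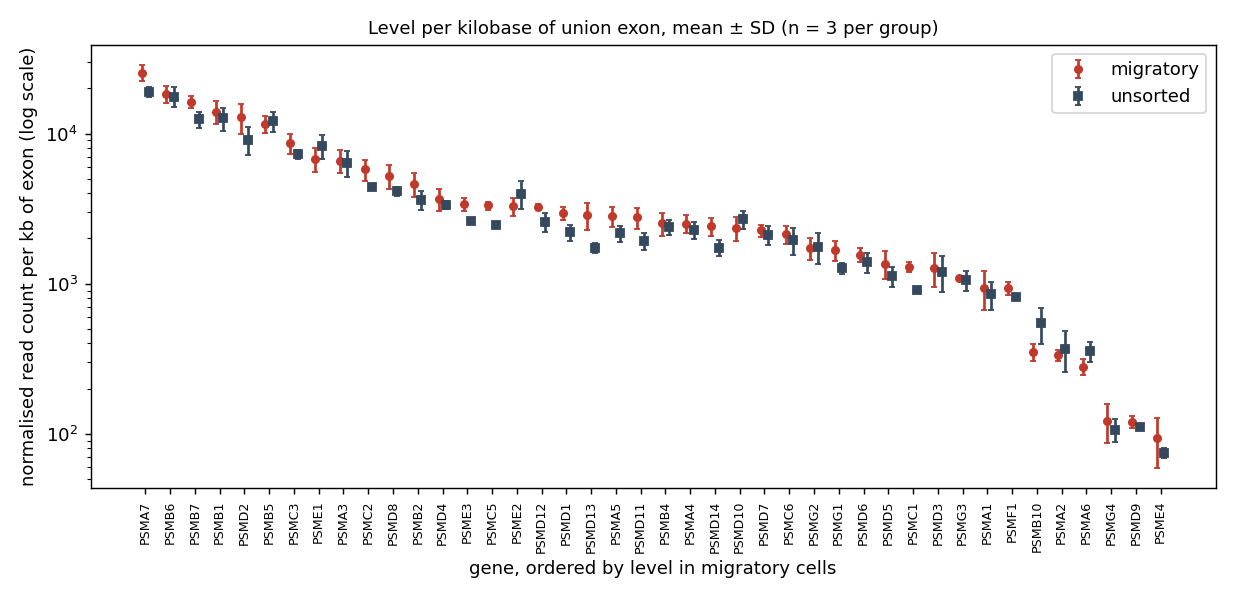
Normalised read count per kilobase of union exon for the 42 proteasome genes, ordered by level in migratory cells, on a log axis, with mean ± SD (n = 3 per group). PSMA7 is highest and PSME4 lowest in both groups, and PSMB10 lies far below PSMB5, PSMB6 and PSMB7.

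Of 25 listed partners of the proteasome that are not PSM genes, 21 were measured, and 19 had positive log2 fold changes, with a median of 0.21. Among all tested genes 48.1% were positive, and among those with a mean of at least 1000 this was 59.0%, with a median of 0.09. RAD23B, a shuttle that brings ubiquitylated proteins to the proteasome, had 2823, 3154 and 2091 normalised read counts in migratory cells, against 1064, 961 and 705 in unsorted cells. It was the 1 partner that passed (limma adjusted p of 0.049), where 0.234% of all tested genes did. The RAD23B call was lost in every fit with a library left out, where the limma adjusted p ranged from 0.074 to 0.21. It was also lost in edgeR (adjusted p of 0.063), with a pseudocount of 0.5 (limma adjusted p of 0.0512) and with no filter on low values (limma adjusted p of 0.0502). DESeq2 gave an adjusted p of 1.2e-06. PITHD1 had 2187, 1839 and 1522 in migratory and 1266, 1306 and 1093 in unsorted cells, without overlap (limma adjusted p of 0.22). UBE3C, a ubiquitin ligase that works at the proteasome, and KIAA0368, also called ECPAS, a scaffold between core and regulatory particle, had log2 fold changes of 0.89 and 0.70 and overlapped. Without unsorted replicate 3 these were 0.54 for UBE3C and 0.35 for KIAA0368, and without unsorted replicate 2 they were 1.29 and 1.06. POMP, the chaperone of core maturation, had a log2 fold change of 0.29, and ADRM1, a ubiquitin receptor of the particle, of 0.05.

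Among genes that regulate proteasome transcription, 10 of 12 listed were measured, 5 positive and 5 negative, and 0 passed in limma (0 at an unadjusted p under 0.05), edgeR or DESeq2. NFE2L1, the factor that raises proteasome genes when activity is short, had 802, 1594 and 1571 normalised read counts in migratory cells and 1134, 2108 and 850 in unsorted cells, which overlapped. NFE2L2 had a log2 fold change of -0.33, NGLY1, which processes NFE2L1, of 0.27, NFYA of 0.31 and the small MAF gene MAFK of 0.99. MAFK was low, at 61.7, 50.1 and 60.4 in migratory and 20.6, 36.6 and 30.2 in unsorted cells, and neither it nor NGLY1 overlapped. Of 21 interferon and antigen processing genes, 18 were measured, 5 of them with positive log2 fold changes, where 48.1% of all tested genes were positive, and 13 with negative ones, with a median of -0.37. None passed in limma or edgeR, 4 had an unadjusted limma p under 0.05, all lower, where 10.0% of all tested genes did, and DESeq2 called 3 (IFNGR1, IRF2 and TAPBPL) as lower, where it called 5.91% of all genes. IFNGR1, a chain of the interferon-gamma receptor, had 2995, 2721 and 3558 in migratory cells, against 5362, 4269 and 5439 in unsorted cells, without overlap (log2 fold change -0.70, SE 0.20, limma adjusted p of 0.13). IRF2 had 851, 600 and 596 in migratory and 987, 1219 and 1332 in unsorted cells, also without overlap. IRF1, the interferon-induced factor that drives immunoproteasome genes, had 3928, 6858 and 3623 in migratory and 6487, 8619 and 7729 in unsorted cells, and migratory replicate 2 overlapped the unsorted group. TAPBPL, a peptide editor of MHC class I, had 174, 65.8 and 119 in migratory and 352, 189 and 498 in unsorted cells (limma adjusted p of 0.15).

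Blood cells carry immunoproteasomes, so their markers are given beside PSMB10. Of 11 such markers 4 had a row, and the others, PTPRC, CD68 and CD3E among them, were not analysed here. The summed level of the 4 was between 7820 and 8080 in migratory and between 10091 and 11679 in unsorted libraries. CD74 made up most of it, and CD14 had 107, 64.4 and 25.1 in migratory and 411, 375 and 283 in unsorted cells. LYZ lay between 3.42 and 8.59 in migratory and between 0 and 24.5 in unsorted libraries. All 3 markers that passed the filter on low values had negative log2 fold changes, where 48.1% of all tested genes were positive. Of these markers 2 had no overlap between groups, where 12.5% of tested genes lay lower without overlap. The markers' part in the PSMB10 values was not tested. Fibroblast markers, 3 of 5 with a row, summed to between 465 and 1493 in migratory and between 1861 and 3218 in unsorted libraries. Endothelial markers, 3 of 5 with a row, summed to between 640 and 976 in migratory and between 1297 and 1878 in unsorted libraries. PECAM1 made up most of this endothelial sum. KDR had a positive log2 fold change (2.10, SE 1.30) and TEK a negative one (-1.36, SE 1.27), and both overlapped between groups. KDR was at 0 in unsorted replicate 3 and TEK at 0 in migratory replicate 2, and DESeq2 gave 0.96 and -0.28. Leaving out single libraries moved the limma values between 0.30 and 3.01 for KDR and between -2.33 and 0.29 for TEK. DESeq2 called CD14 (adjusted p of 0.00024), COL1A2 (0.011) and PECAM1 (0.015) as lower in migratory cells, where it called 5.91% of all genes. No marker of these 3 lists was called by limma or edgeR, and the part of these lists was not tested either. The line's markers VIM, CD44, EGFR and AXL all had positive log2 fold changes, with a median of 0.48, where 48.1% of tested genes were positive. The groups did not overlap for 3 of the 4, where 11.3% of tested genes lay higher without overlap. DESeq2 called AXL (adjusted p of 0.043) as higher, and limma and edgeR called 0 of the 4.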

How the data were processed

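The submitters' processing notes name HISAT2, HTSeq, DESeq2, hg38 and GRCh38.p7; roles, settings and annotation are not given. The deposited signal is each gene's read count over its library's size factor, and 100.0% of them were whole reads within 0.01 read. Per the labels' protocols, RNA was amplified with a SMART-seq kit and tagmented with Nextera XT, which mark no strand and carry no molecular identifiers. The main test was limma 3.58.1 (R 4.3.3) with an intensity trend on log2(value + 1), for 15786 genes with a mean of at least 10, with two-sided Benjamini-Hochberg adjusted p over all of them. The log2 fold changes of weakly read genes depend on that pseudocount. For KDR, at 0 in unsorted replicate 3, limma gave 2.10, against 0.94 in edgeR and 0.96 in DESeq2. edgeR 4.0.16 and DESeq2 1.42.0 on recovered reads, other pseudocounts, filters and scalings, array weights, a replicate block and leaving out each library were alternatives. The tests were tested on simulated data. GENCODE (GRCh38) gave lengths, exon overlaps and gene coordinates, and RefSeq (GRCh38.p14) the promoters. Values in every library are given for PSMB5 to PSMB7, PSMB10, PSME1, PSME2 and the 2 members with the smallest p among PSMA, other PSMB, PSMC, PSMD, PSME with PSMF1, and PSMG genes. PSMD2, PSMD14, PSME4, PSMC1P1, POMP, ADRM1, SHFM1, NFE2L1, ERBB2, CD14, LYZ, COL1A2, PECAM1, KDR and TEK are named beyond that rule, after their values were seen. Up to 4 genes with the smallest p are named from each partner list. The members and lists were chosen with earlier results of these data known, and the classes within PSMD were set afterwards.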

Additional observations from a re-analysis of the deposited data

How the results depend on the processing

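The median log2 fold change of the members lay between 0.07 and 0.26 over all alternatives, and 27 to 36 of 42 members had positive values. No member was called under any alternative except DESeq2, which called 2. Outside DESeq2 the lowest adjusted p of any member was 0.057. The count of genes called over the whole table was 37, and was 97 with a pseudocount of 10, 78 with a filter at a mean of 50, 75 with upper-quartile scaling, 21 in edgeR, 933 in DESeq2 and 507 with array weights, and it ranged from 1 to 44 with single libraries left out. With a library left out the ATPase median ranged from 0.34 to 0.48 and that of the activators and inhibitor from -0.0060 to 0.28. PSMB5 ranged from -0.19 to 0.023, turning positive without migratory replicate 2 or unsorted replicate 1 or 3. PSMB6 ranged from -0.066 to 0.14, turning negative without migratory replicate 1 or unsorted replicate 2, and was -0.061 with array weights. PSMG4 ranged from -0.050 to 0.30 and was -0.017 with array weights. The cause of these shifts was not tested. The difference between groups in the log2 ratio of PSMB10 to PSMB7 lay between -1.12 and -0.82. The other members chosen by the naming rule kept their direction under every alternative. With array weights 28 members had positive values, with a core median of -0.04.

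Replicate numbers are shared between groups, and the titles do not state whether same-numbered samples were pairs. Correlations of same-numbered deviations from the group means were 0.12, 0.11 and 0.04. Those of differently numbered samples lay between -0.16 and 0.07. Unsorted replicates 1 and 2 correlated best with their own number, and unsorted replicate 3 with migratory replicate 1. These values do not settle whether the samples were paired. With the replicate block 114 genes and 0 members were called, and the ratio of PSMB10 to PSMB7 differed by -0.99 with an exact sign-flip permutation p of 0.25, the smallest that 3 pairs allow. Amplified reads are not independent molecules, so depth limits these values less than the 3 libraries per group do.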
